A study of Mus musculus with 2 samples.

Results

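The Rab GTPases are the largest family of small GTPases that direct membrane traffic. The 59 genes described here are the protein-coding genes whose symbol is Rab followed by a number and an optional letter, out of 21802 protein-coding genes listed for both of the libraries compared. The rule uses the symbol alone and no measured value. The data are bulk RNA sequencing of polyadenylated RNA from brain tissue of wild-type male C57BL/6J mice aged 14 weeks, read as 150 bp pairs. One library came from tissue at an anterior position and 1 from tissue at a posterior position, each position being matched to brain slices that were imaged by MERFISH, an imaging method for single RNA molecules. The sources used here do not give how many animals were used, or whether one animal gave both pieces.

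A Rab protein switches between a GDP-bound form held in the cytosol and a GTP-bound form on a membrane. Exchange factors switch it on, GTPase-activating proteins switch it off, and effectors such as tethers and motors bind the active form. A lipid attached to cysteines at the end of the protein anchors it to the membrane, and each Rab marks its own compartments. In neurons Rab3 and Rab27 proteins act at synaptic and secretory vesicles, Rab5 proteins at early endosomes, Rab4 and Rab11 proteins in recycling, Rab7 at late endosomes, and Rab1, Rab2 and Rab6 proteins at the endoplasmic reticulum and Golgi.

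Depth was 43558839 fragments for the anterior and 147138183 estimated fragments for the posterior library, a ratio of 3.38. With 1 library per position there is no replicate check, no p-value was computed, and intervals cover counting error only. Position, library and quantification pipeline changed at once and cannot be told apart. In bulk tissue fewer cells of a type and less RNA per cell cannot be told apart either. Levels are in FPKM (fragments scaled to transcript length and to a library total) within a library. The FPKM of the libraries rest on different gene lengths and on totals taken differently, so a pair of them is no measure of change. Differences use the fragment share, the fragments of a gene out of 1000000 fragments in protein-coding genes, as log2 of posterior over anterior, each with 0.5 added, relative to the median of the 13339 protein-coding genes that reached 1 FPKM in one library or both. A gene is called different when its share differs at least 2-fold. All 8 pan-neuronal markers were found in both libraries with a median difference of -0.42. The markers of other cells and regions ranged more widely, from a median of -0.85 for 8 isocortical excitatory neuron genes to 0.83 for 10 oligodendrocyte, 2.09 for 5 ependymal, 2.58 for 6 thalamus and 3.63 for 6 choroid plexus genes.

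The sequences that set the family apart are short. The phosphate-binding loop, which holds the nucleotide, is encoded by a glycine codon, any 4 codons, then glycine, lysine and a serine or threonine codon. The pattern was read in frame on the coding strand, in the transcript with a complete coding sequence that led its gene in the posterior library. For Rab17 and Rab44, whose transcripts with a complete coding sequence had 0 fragments there, an annotated one was read. The codon pattern occurred once in 56 of the 59 Rab genes. It was found in 4.35% of 21502 mouse genes with a complete coding sequence, taking the longest of each. The Rab3 loops are shown because these genes encode vesicle Rabs of the brain and include the highest of the family. The capitals mark the glycine, glycine, lysine and threonine codons, and the sequences are from the GENCODE M21 transcripts of build mm10.
Rab3a: GGGaacagcagcgtgGGCAAAACC
Rab3b: GGCaacagcagcgtcGGGAAGACC
Rab3c: GGCaatagcagcgtgGGCAAAACA
Rab3d: GGGaacagcagcgtgGGCAAGACA

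Between any pair of the 4 loops 2 to 5 of the 24 bases differed, each time the last base of a codon. Over the whole coding sequence identity between Rab3 genes lay between 72.6% for Rab3b and Rab3c and 77.7% for Rab3b and Rab3d. The loop began at codon 29 in Rab3a, Rab3b and Rab3d and at codon 37 in Rab3c. Among the 56 genes it began between codon 12 and codon 792, with a median of 16. The latest was in Rab44, which has the longest coding sequence of the family at 973 codons. The 3 genes without the pattern were Rab40b, Rab40c and Rab11b. In Rab11b this holds for the leading transcript Rab11b-203, which has 193 codons, while Rab11b-201, with 218 codons, holds it at codon 18.

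The other end of the coding sequence carries the cysteine codons, TGT or TGC, to which the lipid is attached. All 59 coding sequences read had at least 1 of them among their last 4 codons, against 10.6% of the 21502 genes. Only the last 4 codons were read, so a cysteine codon ahead of them is not seen here. In 20 Rab genes the cysteine codons were the last and the third-last codon, and in 15 the last 2 codons. In 15 genes they were the fourth-last codon alone, among the 4 read. In 6 genes, among them Rab5a, Rab5b and Rab5c, they were the fourth-last and third-last, and in 3 genes, Rab20, Rab34 and Rab44, the third-last and second-last. One line is shown for each arrangement, with the cysteine codons in capitals.
Rab3a: gatTGTgccTGC
Rab2a: ggaggcTGCTGT
Rab11a: TGTcagaacatc
Rab5a: TGTTGTagtaac
Rab34: acaTGTTGTccc

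Among the 86 Rab coding transcripts that had a complete coding sequence and held at least 5% of their gene's FPKM, 7 had no cysteine codon among their last 4. The largest of their shares were those of Rab18-201 (35.1%) and Rab28-205. Rab28 encodes a Rab of the cilium, and its transcripts are shown because they differ at this end, again with cysteine codons in capitals. Rab28-201 held 55.9% of the gene's FPKM in the posterior library, Rab28-203 13.3% and Rab28-205, which has no such codon at its end, 25.0%.
Rab28-201: TGTgcagtgcag
Rab28-203: TGTtcagtacag
Rab28-205: tcacagactgta

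Most of the family was present in both libraries, over a wide range of levels. Of the 59 genes 47 reached 1 FPKM (anterior) and 50 (posterior), and 31 and 42 reached 10. The 5 highest genes held 50.3% of the summed Rab FPKM (anterior) and 42.4% (posterior). They were the same 5, Rab3a, Rab6b, Rab6a, Rab7 and Rab2a. The median over all 59 Rab genes was 12.5 FPKM (anterior) and 14.7 (posterior). Over the 13339 genes compared it was 7.03 and 12.1. Unlike the Rab genes, all of those had reached 1 FPKM in a library. Across the 59 genes, which are not independent replicates, Spearman's rho between the libraries was 0.92 for FPKM and 0.96 for fragment share. Of the 10 highest genes 6 were shared.

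**Figure D1:**
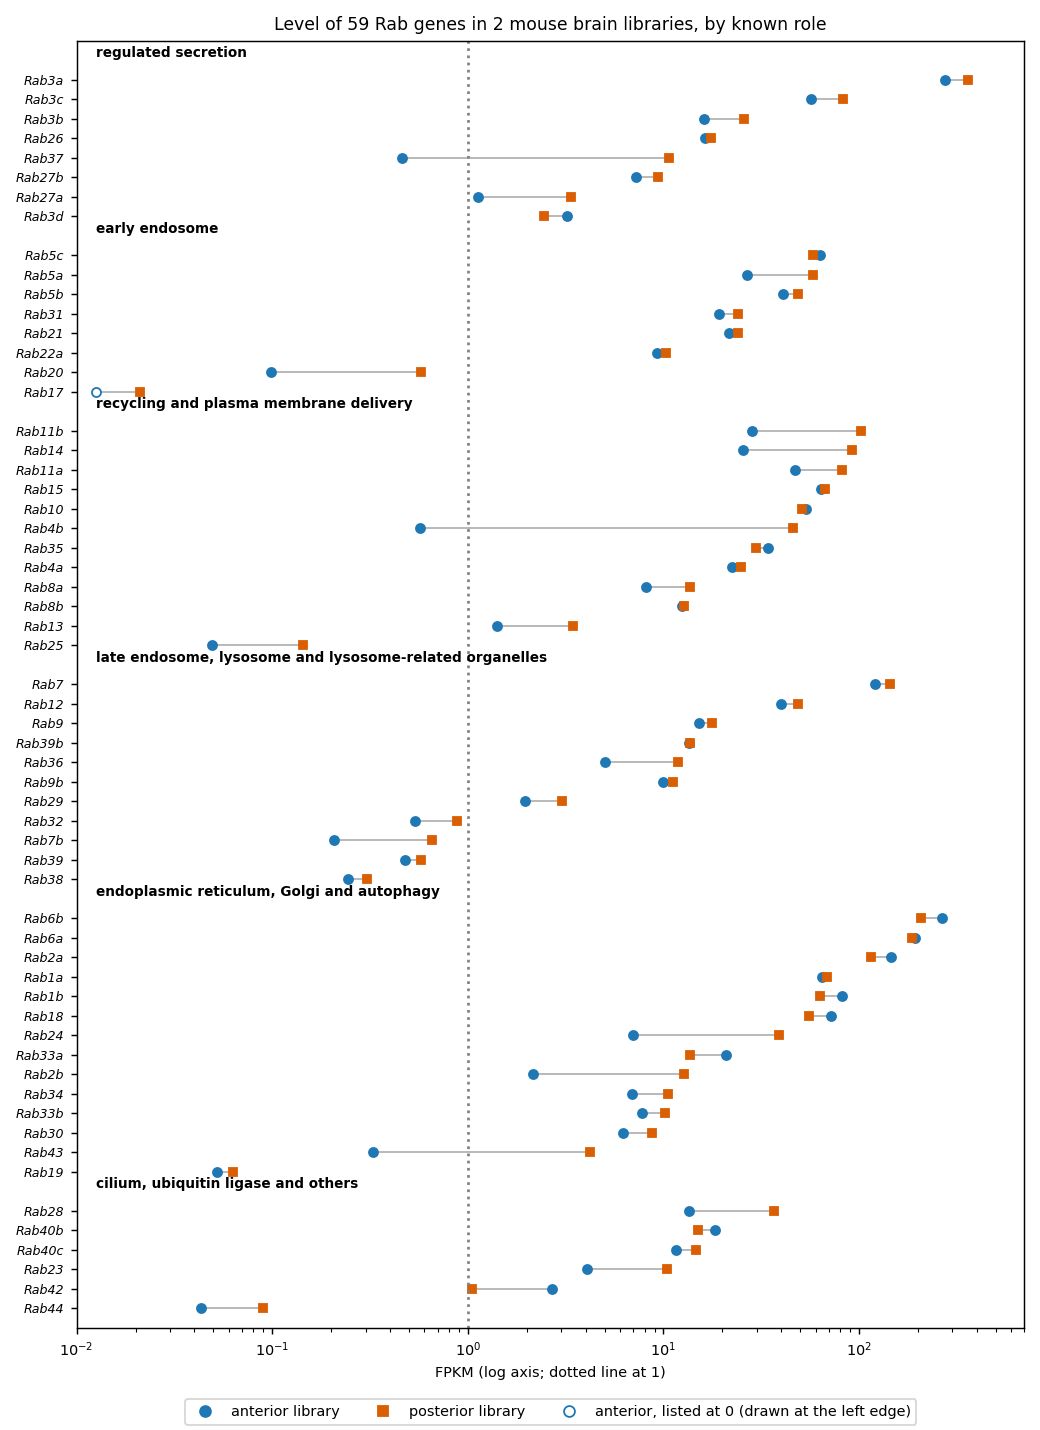
FPKM of the 59 Rab genes in the anterior (circle) and posterior (square) library on a log axis, grouped by the known role of the protein, with a line joining the values of a gene. Rab3a is highest in both libraries at 275 and 360 FPKM, and Rab4b, Rab37 and Rab43 have the longest lines.

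Rab3a, which controls the docking and release of synaptic vesicles, led the family with 275 FPKM (anterior) and 360 (posterior). Rab3c, a close relative on the same vesicles, had 56.99 and 82.5, Rab3b 16.0 and 25.8, and Rab3d 3.20 and 2.44. The order of the 4 was the same in both libraries. By fragments, which are not scaled to length, Rab3c stood first, with 50.2% of the Rab3 fragments in the anterior library (95% Clopper-Pearson interval 49.7 to 50.6). The share was 59.1% in the posterior library (58.8 to 59.3). Its gene length was 12049 bases, against 2226 for Rab3a. Differences of the fragment share within the group were small for Rab3a (-0.30), Rab3c (0.20) and Rab3d (-0.33), and -0.57 for Rab3b, so none was called.

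Rab27a and Rab27b, which tether secretory vesicles to the plasma membrane, were low. Rab27b had 7.23 FPKM (anterior) and 9.37 (posterior), and Rab27a 1.13 and 3.35. Rab27b held most of the fragments of the pair in both, 94.6% (93.8 to 95.4) and 85.2% (84.5 to 86.0). Rab26, a Rab of synaptic vesicles and secretory granules, had 16.2 and 17.5 FPKM, and Rab37, also of secretory granules, 0.462 and 10.6. The 8 genes of regulated secretion together made up 18.9% of the summed Rab FPKM (anterior) and 21.4% (posterior).

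The early endosome group was led by the 3 Rab5 genes, whose proteins drive fusion of early endosomes. Rab5c had 63.0 FPKM (anterior) and 58.3 (posterior). Rab5b had 40.9 and 48.8, and Rab5a 26.7 and 57.8. In the anterior library the 3 levels were spread over a more than 2-fold range with Rab5a lowest, and in the posterior library Rab5a and Rab5c were nearly level. The fragment share of Rab5a differed by only 0.12 on the log2 scale, and those of Rab5b and Rab5c by 0.04 and -0.20. Of the others in the group, Rab21 with 21.7 and 24.03 FPKM, Rab22a with 9.29 and 10.3 and Rab31 with 19.3 and 24.2, also act at early endosomes, and their share differences were 0.15, 0.21 and 0.40. Rab17 and Rab20 were too low to compare.

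In the recycling group Rab11a and Rab11b, which mark the recycling endosome, had 47.1 and 28.2 FPKM in the anterior library but 81.3 and 103 in the posterior. The order of the pair was thus reversed in FPKM. It was not reversed in fragments, of which Rab11b held 55.0% (54.1 to 55.9) and 58.6% (58.1 to 59.1). The FPKM of Rab11b rests on a gene length of 6109 bases in the anterior library but on a mean effective length of 1505 in the posterior, a ratio of 4.06. Rab14, which acts between the Golgi and endosomes, had the same feature, with 25.4 and 92.4 FPKM, a length ratio of 5.05 and a fragment share difference of -0.13. Over the 50 genes compared, Spearman's rho between this length ratio and the difference of the fragment share, which uses no length, was -0.09. Rab15, a neuronal Rab of recycling endosomes, had 64.0 and 66.7 FPKM and a share difference of -0.39. Rab10, which drives delivery to the plasma membrane, had 53.3 and 50.97 FPKM, and Rab35, of a rapid recycling route, 34.3 and 29.9. Rab8a and Rab8b, which deliver vesicles to the plasma membrane and cilium, had 8.11 and 13.6, and 12.5 and 12.7, and Rab13, a Rab of cell junctions, 1.42 and 3.45.

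Among the late endosome and lysosome genes Rab7, the general Rab of late endosomes, stood far above the others with 120 FPKM (anterior) and 144 (posterior), and its fragment share differed by 0.04. Rab12 followed at 39.8 and 48.6. The Rab9 pair, which acts in return from late endosomes to the Golgi, had 15.2 and 17.6 for Rab9 and 9.89 and 11.2 for Rab9b. Rab29, which can recruit the kinase Lrrk2, was low at 1.96 and 3.03. Rab39b, whose human counterpart is altered in forms of intellectual disability, had 13.5 and 13.7, and Rab36, which places lysosomes, 5.04 and 11.9. Rab32 and Rab38, the Rabs of melanosomes, were under 1 in both libraries, together with Rab7b and Rab39.

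The endoplasmic reticulum, Golgi and autophagy group held the largest part of the family, 44.0% of the summed Rab FPKM (anterior) and 33.3% (posterior). Rab6b, the form of the Golgi Rab6 found mainly in brain, had 264 FPKM (anterior) and 208 (posterior), and the widespread Rab6a 193 and 186. By fragments Rab6b held 64.8% of the pair (64.5 to 65.2) in the anterior library. The posterior value was 61.8% (61.6 to 62.0). Rab2a, which acts between the Golgi and the endoplasmic reticulum, had 146 and 115. Rab1a and Rab1b, needed for export from the endoplasmic reticulum, had 64.9 and 68.8, and 82.2 and 63.4. Rab18, a Rab of the endoplasmic reticulum and lipid droplets, had 71.8 and 55.4. The share differences of these genes were small, from -0.28 for Rab6b to -0.07 for Rab18. Lower down stood Rab33a with 20.8 and 13.7 FPKM, Rab33b with 7.74 and 10.2, Rab34 with 6.89 and 10.54 and Rab30 with 6.19 and 8.74.

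In the remaining group Rab28 had 13.5 and 36.9 FPKM with a length ratio of 3.69 and a share difference of -0.10. Rab40b and Rab40c, which are parts of ubiquitin ligases, had 18.3 and 15.0 FPKM, and 11.5 and 14.7. Their fragments were close to equal in the anterior library, with 50.7% (48.8 to 52.6) for Rab40b. In the posterior library Rab40b held 39.6% (38.5 to 40.7). Rab23, a brake on hedgehog signalling at the cilium, had 4.07 and 10.4 FPKM, and its fragment share differed by 0.10.

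Of the 59 genes 9 stayed under an FPKM of 1 in both libraries and were not compared. They were Rab7b, Rab17, Rab19, Rab20, Rab25, Rab32, Rab38, Rab39 and Rab44, and their highest values were 0.538 FPKM (anterior) and 0.879 (posterior). Several are Rabs of epithelia, melanosomes or blood cells. Rab17, an epithelial Rab, was lowest, with 0 fragments (anterior) and 1 (posterior).

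Of the 50 genes compared, 43 lay within 2-fold and 39 within 0.5 on the log2 scale. The median difference was 0.0074, with 25 genes on either side of 0. Called higher in the posterior library were 6 genes, or 12% of those compared, where 8.19% of all 13339 genes were called in that direction. Called higher in the anterior library was 1 gene, or 2%, where 1.84% of all genes were. These shares are near the background, and the summed share of the family was 6374 out of 1000000 (anterior) and 6111 (posterior).

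**Figure D2:**
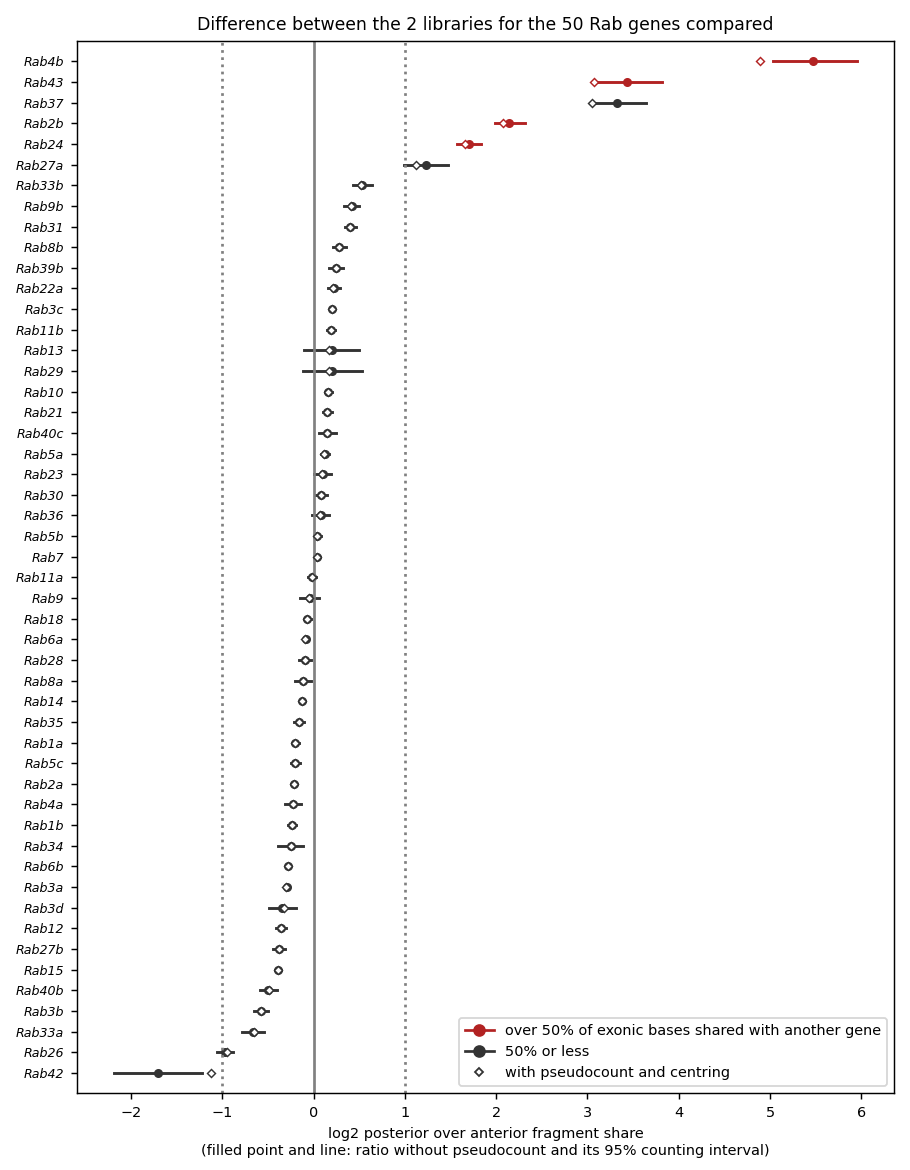
Log2 of the posterior over the anterior fragment share for the 50 Rab genes compared, with the ratio and its 95% counting interval (filled point and line) and the value with pseudocount and centring (open diamond); dotted lines stand at 2-fold. The 4 genes drawn in red, with over 50% of their exonic bases also under an exon of another gene, are all to the right of the 2-fold line, and Rab42 is the single gene left of it.

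Rab4b, a Rab of rapid recycling, had 41 fragments (anterior) and 5775 (posterior), or 0.570 and 45.98 FPKM. Its fragment share was 44.5 times higher in the posterior library (32.7 to 62.0), a log2 difference of 4.89 with the pseudocount. Its relative Rab4a had 22.5 and 24.96 FPKM and a difference of -0.22, so that Rab4a held 97.2% of the fragments of the pair (96.3 to 98.01) in the anterior library, with 40.4% (39.4 to 41.4) in the posterior.

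Rab43, a Golgi Rab, had 66 and 2265 fragments and a share 10.8 times higher in the posterior library (8.48 to 14.1). Rab2b, the relative of Rab2a at the Golgi, had 327 and 4584 and a share 4.42 times higher (3.95 to 4.96). Rab24, an atypical Rab of autophagy, had 511 and 5257 and a share 3.25 times higher (2.96 to 3.56). All 4 of these genes share exons with a neighbour in the GENCODE M21 annotation, and a fragment from shared bases can be given to either gene or to none.

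For Rab4b 65.0% of the exonic bases lay under exons of Gm21983 on the same strand, and for Rab43 75.4% under exons of Gm45140 on the same strand. Rab24 shared 62.4% of its bases with Prelid1, a gene of mitochondrial lipid transfer on the opposite strand. For Rab2b 59.3% were shared with Gm43766 on the opposite strand. Gm21983 had 0 fragments (anterior) and 6.91 (posterior), and Gm45140 3 and 664. Prelid1 had 3497 and 11238, and Gm43766 42 and 207.

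These were the only 4 of the 50 Rab genes with more than 50% of their exonic bases shared, a limit chosen after the values were seen. Among all genes compared, 77.5% of the 298 with more than 50% of their bases shared were called higher in the posterior library, against 6.6% of the 13041 others. Of the 46 other Rab genes 2 were called in that direction. Smaller parts of the highest genes also matched other genes: the share of 31-base words found elsewhere was 21.3% in Rab6a, 18.4% in Rab7 and 15.4% in Rab11b. The sources used here do not say how fragments of shared bases were counted in the anterior library, and its part in the differences of Rab4b, Rab43, Rab2b and Rab24 was not tested.

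**Figure D3:**
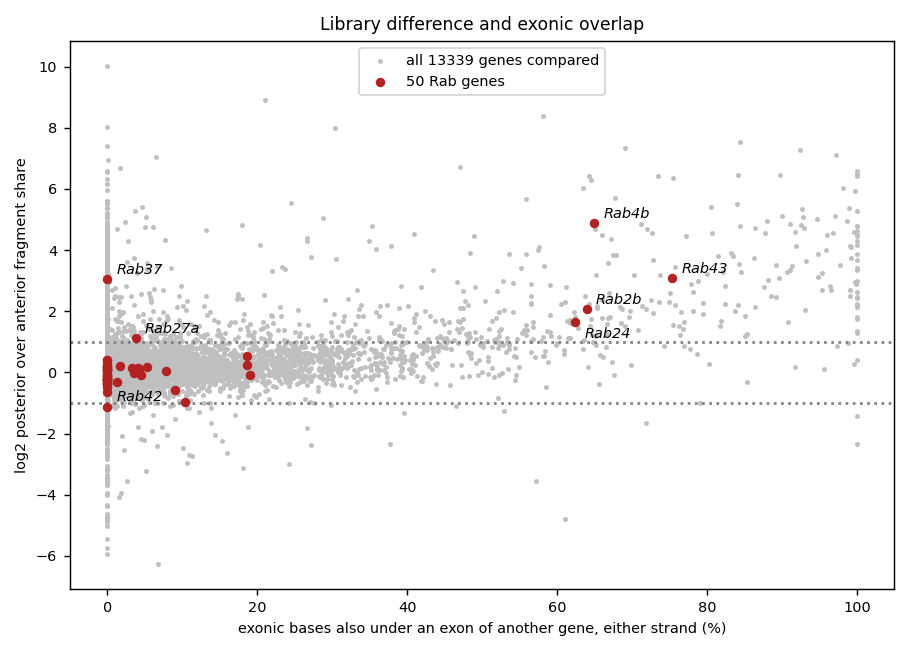
Log2 of the posterior over the anterior fragment share against the percentage of exonic bases that also lie under an exon of another gene on either strand, for all 13339 genes compared (grey) and the 50 Rab genes (red). Rab4b, Rab43, Rab2b and Rab24 lie to the right of 50%, where most grey points are above the dotted 2-fold line, while Rab37 stands at 0%.

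Rab37 and Rab27a were the other called genes of the posterior library. Rab37 had 90 fragments (anterior) and 2861 (posterior), with a share 10.03 times higher (8.13 to 12.5). It shared 0% of its exonic bases with another gene, and 0.77% of its 31-base words occurred in another gene. The leading transcript Rab37-201 held 75.5% of the gene's FPKM. Rab27a had 160 and 1188 fragments and a share 2.34 times higher (1.98 to 2.78), an interval that reaches under 2. By FPKM the difference of Rab27a was 0.61 and not called. The thalamus and choroid plexus markers were higher in the posterior library too, with 6 of 6 called in each list and 0 of them at 0 fragments. So were 5 of 5 ependymal markers, 1 of them at 0 anterior fragments, and 2 of 10 oligodendrocyte markers were called, with all 10 above 0. The summed FPKM was 16.0 (anterior) and 197 (posterior) for the thalamus list, and 0.703 and 659 for the choroid plexus list. For the ependymal list it was 2.54 and 34.4, and for the oligodendrocyte list 781 and 3221. The part of these cells in the values of Rab37 and Rab27a was not tested.

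Rab42 was the 1 gene called higher in the anterior library, with 75 and 73 fragments. Its share was 3.26 times higher there (2.33 to 4.56) and its level was low, 2.70 FPKM (anterior) and 1.05 (posterior). With the pseudocount and centring the difference was -1.12, close to the limit. With a pseudocount of 1 it was -0.85 and not called. The nearest gene inside the limit was Rab26, with 1691 and 2740 fragments and a difference of -0.95. Next came Rab33a, a brain-enriched Golgi Rab on the X chromosome, at -0.65, and Rab3b at -0.57. Rab33b, which binds the autophagy protein Atg16l1, was at 0.52 and Rab40b at -0.49. Within the Rab33 pair, then, the differences had opposite signs.

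On the FPKM scale 7 Rab genes were called higher in the posterior library and 4 were called higher in the anterior, where 14.5% and 7.11% of all genes were called, and the median was -0.33. Among the 32 Rab genes with at most 5% of their exonic bases and of their 31-base words shared, 1, Rab37, was called higher in the posterior library and 1, Rab42, in the anterior. The background there was 4.75% and 1.55% of 8929 genes.

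The posterior library was quantified per transcript. In Rab6a the transcripts Rab6a-201 and Rab6a-202 each use a different one of a pair of exons of 106 bases. Rab6a-201 held 91.8% of the gene's FPKM and Rab6a-202 6.43%. The exons are shown because they are what tells these transcripts apart, with capitals for the bases that differ between them, and in Rab6b for the bases that differ from Rab6a-201. In build mm10 they lie at chr7:100629838-100629943 (Rab6a-201), chr7:100629666-100629771 (Rab6a-202) and chr9:103161064-103161169 (Rab6b-201), all on the plus strand.
Rab6a-201: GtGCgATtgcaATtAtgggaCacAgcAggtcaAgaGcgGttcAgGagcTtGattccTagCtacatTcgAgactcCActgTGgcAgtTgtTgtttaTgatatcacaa
Rab6a-202: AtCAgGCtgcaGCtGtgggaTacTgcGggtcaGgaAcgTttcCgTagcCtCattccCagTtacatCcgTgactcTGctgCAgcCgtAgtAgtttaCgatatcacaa
Rab6b-201: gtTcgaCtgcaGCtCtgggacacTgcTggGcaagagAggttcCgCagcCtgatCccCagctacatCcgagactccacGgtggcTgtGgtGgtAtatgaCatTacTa

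The Rab6a exons differed at 30 bases, which changed 24 codons of the 627-base coding sequence but the encoded amino acid at only 3. The exon of Rab6b differed from that of Rab6a-201 at 23 bases and from that of Rab6a-202 at 30. For Rab3a the leading transcript Rab3a-201 held 67.2% of the FPKM and Rab3a-204 29.2%, both coding. No interval is given for transcript shares, since the error of Salmon's estimates was not used.

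Among the 43 Rab genes with at least 2 annotated transcripts and an FPKM of at least 1, the leading transcript held a median of 83.7% of the FPKM, beside 68.2% over all 11965 such genes. It held at least 90% in 14 Rab genes and less than 50% in 5, or 11.6%, where 26.1% of all genes were under 50%. The 5 were Rab18 at 35.8%, Rab40c at 42.0%, Rab23 at 46.0%, Rab36 at 47.5% and Rab29 at 48.3%. In Rab40c and Rab29 the next transcript, also coding, was close behind, with 41.6% in each. In Rab23 and Rab36 transcripts with a retained intron made up 38.9% and 36.0%.

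**Figure D4:**
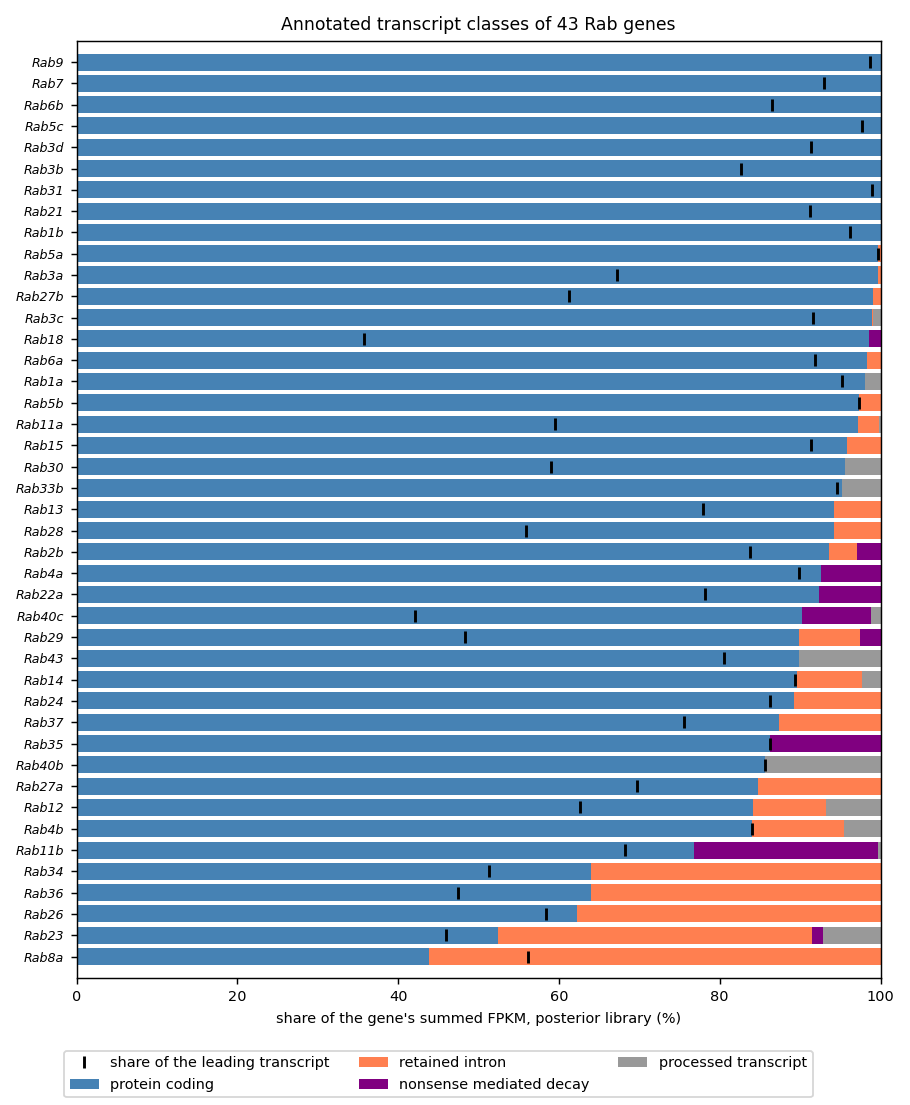
Share of each Rab gene's summed FPKM in the posterior library held by transcripts annotated as protein coding, retained intron, nonsense mediated decay and processed transcript, for the 43 genes with several transcripts, with a tick at the share of the leading transcript. Rab8a, at the bottom, is the gene with the smallest coding share at 43.9%.

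Transcripts not annotated as coding held a median of 5.80% of the FPKM in the 43 Rab genes. They held at least 20% in 6 of these genes, and the share of all genes at that limit was not computed. The 6 genes were Rab8a (56.1%), Rab23 (47.5%), Rab26 (37.8%), Rab36 and Rab34 (36.0% each) and Rab11b (23.2%). In Rab8a, whose protein carries vesicles to the plasma membrane and cilium, the short retained-intron transcript Rab8a-202 led by FPKM with 56.1%. By fragments the coding Rab8a-201 led with 92.9%, from 3753 fragments against 287. The annotated lengths are 4550 and 542 bases, and per annotated base Rab8a-201 would lead too. The lead of Rab8a-202 thus rests on the effective lengths used for FPKM, which are shorter than the annotated ones. In Rab11b most of this share, 22.9%, was a transcript annotated for nonsense mediated decay.

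Few of the genes that act on or with Rab proteins differed 2-fold. Of 128 listed genes found, 120 were compared, 4 were called higher in the posterior library, 1 was called higher in the anterior, and their median was -0.02. Over all genes compared 8.19% and 1.84% were called. Among the 8 genes of prenylation and membrane extraction, which attach the lipid and shuttle Rab proteins through the cytosol, 0 were called. All 8 lay between -0.24 and -0.16. Rabac1, a Rab acceptor of the Golgi, had 84.3 FPKM (anterior) and 149 (posterior).

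Of 32 exchange factors 0 were called, with a median of 0.03. The highest in the posterior library were Dennd5a with 38.1 and 68.8 FPKM and Madd, an exchange factor of Rab3 proteins, with 36.2 and 56.0. Of 34 GTPase-activating proteins 1 was called, Tbc1d16, which acts on Rab4a, at 1.07 with 1492 and 10012 fragments. The median was -0.05, and the highest levels of the posterior library were those of Tbc1d9b, with 34.1 and 44.1 FPKM, and Rabgap1l, with 11.5 and 42.6. Of the kinase Lrrk2 and the phosphatase Ppm1h, which add and remove phosphate on Rab proteins, neither was called, with differences of -0.23 and -0.20.

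Effectors held the other called genes, 3 higher in the posterior and 1 higher in the anterior library of 45 compared, with a median of -0.05. Sytl4, an effector of Rab27 and Rab3 proteins on secretory granules, had 9 fragments (anterior) and 1221 (posterior) and a difference of 3.75. Micall1, an effector of Rab8a and Rab35, was at 1.56 with 1269 and 12029 fragments, and Unc13d, which acts with Rab27a in granule release, at 1.17 with 44 and 398. Sytl2, another Rab27 effector, was at -1.02 with 4533 and 7070. Rph3a, the Rab3a effector rabphilin, was among the highest with 157 and 109 FPKM and a difference of -0.49. Rundc3a had 111 and 142 FPKM and a difference of -0.28. It was counted on this list, but no Rab partner of it is given here.

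**Figure D5:**
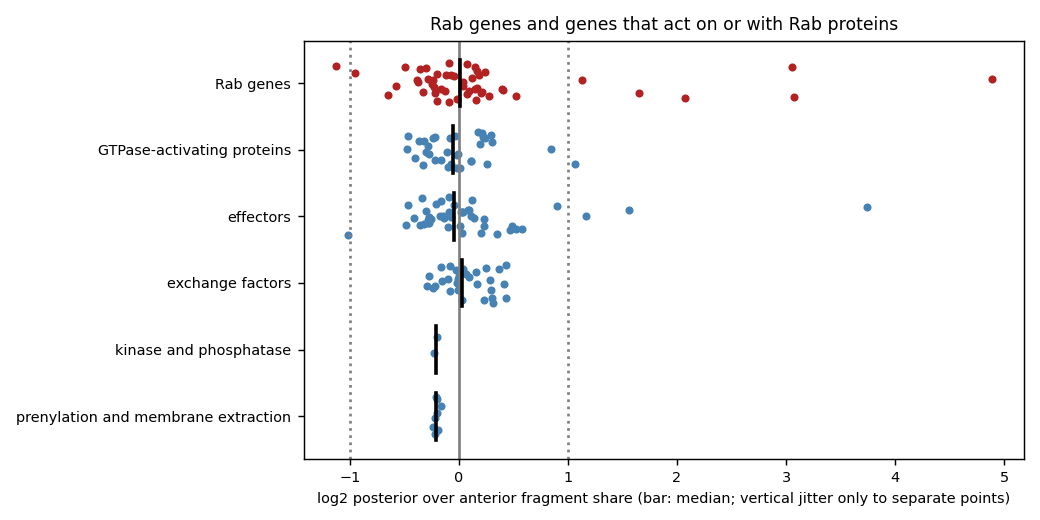
Log2 of the posterior over the anterior fragment share for the 50 Rab genes (red) and for listed genes that act on or with Rab proteins (blue), with a bar at the median of each list and dotted lines at 2-fold. The 8 prenylation and membrane extraction genes lie together just under 0, between -0.24 and -0.16, and Sytl4 is the effector farthest to the right at 3.75.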

How the data were processed

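The anterior FPKM per gene were deposited by the authors. Reads were aligned with HISAT2 2.0.5 to mm10, per the submitters' processing notes. The sources used here do not name the program that counted fragments, or its strand setting. Posterior values deposited by the authors are estimated counts, TPM and effective lengths (other values) of transcripts, made with Salmon against GENCODE, per the labels' protocols. The position of each library is taken from the labels' protocols.

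Anterior fragments were recovered from FPKM and gene length, the product being a whole multiple of 27.4 in 100% of 54532 genes within a tolerance of 0.001. The deposited anterior FPKM were scaled to a total other than the sum of these fragments. Posterior FPKM were computed from the deposited estimated counts and effective lengths, scaled to the sum of all posterior fragments, and summed per gene. Genes were joined by identifier. The fragment share replaced FPKM for differences because it uses no gene length; the median shift removed was 0.00298 (0.63 for FPKM). Folds are ratios without pseudocount or centring, with exact 95% Clopper-Pearson limits. These limits cover counting error only, since there was 1 library per position. Estimated posterior fragments were rounded and taken as counts, so the error of Salmon's estimates is left out. No molecular identifiers were used. Exonic overlap, 31-base words and coding sequences come from GENCODE M21, whose coordinates matched the deposited ones for 57 of 59 Rab genes. Coding identity is from global alignment (match 1, mismatch -1, gap opening -2, extension -0.5). Calculations used Python 3.11.15, pandas 2.3.3, numpy 2.4.6, scipy 1.17.1 and biopython 1.88. The comparison was also run on simulated data with counting error alone. That simulation held no shared exons and no difference in pipeline, so it cannot show how these act on the calls.

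The Rab genes, roles, lists and tests were chosen with earlier results of these data known. Named with values were the 10 highest Rab genes of each library, those called, the 5 nearest to the 2-fold limit on either side, the Rab3, Rab5, Rab6, Rab11, Rab27 and Rab40 subfamilies, genes whose leading transcript is not coding or holds under 50%, and from each list the called and the 2 highest genes of the posterior library, of which 1 is not reported here; further Rab genes were named by role after their values were seen. Alternatives were FPKM, pseudocounts of 1 and 0.1, other filters, no centring and the total over all genes. Further ones were coding transcripts only in the posterior library, genes without shared bases, fragments for transcript shares and TPM for levels.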

Additional observations from a re-analysis of the deposited data

How the results depend on the processing

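No paired analysis was possible because each position had 1 library. The count of 6 Rab genes higher in the posterior library became 1 among genes with at most 5% of their bases and words shared, where 32 Rab genes were left. The count of 1 higher in the anterior library became 4 by FPKM and 0 with a pseudocount of 1. It became 0 with an FPKM of at least 5 and 2 with coding transcripts only. Coding transcripts were selected in the posterior library alone, since the anterior values are per gene. The median of 0.0074 became -0.33 by FPKM, 0.0248 without a filter, -0.0015 with an FPKM of at least 5, 0.055 with coding transcripts only and -0.055 without shared bases. The 5 pathway genes called became 25 by FPKM, 2 with an FPKM of at least 5 and 2 without shared bases. Leading transcripts under 50% fell from 5 genes to 1 when fragments were used. By FPKM 6 of the 7 called Rab genes remained called. The other alternatives kept these counts within 1.5 times, no called Rab gene changed direction under any of them, and the cause of these changes was not tested. Among the called Rab genes Rab4b with 41, Rab43 with 66, Rab42 with 75 and Rab37 with 90 had the fewest anterior fragments, and Rab42 had 73 in the posterior library.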
